A study of Mus musculus with 24 samples.

Results

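The myelin structural proteins described here were 9 genes, Mbp, Mobp, Mog, Mag, Cnp, Mal, Cldn11, Opalin and Ermn, taken by name from the 33364 genes listed. Their RNA was counted in 2 parts of the frontal cortex, the medial prefrontal area (mPFC) and the anterior cingulate area (ACC), of female and male C57BL/6 mice aged 3 months, 2 weeks after spared nerve injury (SNI) or sham surgery. SNI, a model of neuropathic pain, cut the common peroneal and sural branches of the left sciatic nerve and spared the tibial branch, while sham mice had the nerves exposed and not injured. There were 8 groups, namely female sham, female SNI, male sham and male SNI in each of the 2 regions, with 3 libraries in each and 24 in all, and every library was made from tissue punches pooled from 4 to 5 animals. The strain and the age were the same in every group, and no genotype was compared. The SDs below are therefore between pools and not between single mice.

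Myelin is the sheath that oligodendrocytes, the myelinating glia of the brain and spinal cord, wrap around axons, and it speeds the conduction of nerve impulses and shields the axon. Most of the sheath is compacted membrane, held together by basic proteins at the inner faces and by proteolipids across the membrane, while channels of cytoplasm remain at the inner and outer edges and beside the nodes. The genes of these proteins are transcribed mostly in differentiated oligodendrocytes, under transcription factors that include SOX10 and MYRF, and little in the precursors from which these cells arise.

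Of the proteins of compact myelin, Mbp encodes myelin basic protein, which joins the cytoplasmic faces of the membrane, Mobp encodes a smaller basic protein of the same layer, Mal encodes a proteolipid of lipid-rich membrane and Cldn11 the claudin of the tight junctions between the turns of the sheath. On the GRCm38 build, Mobp lies at chr9:120149707-120181484 (+), Mal at chr2:127633226-127656695 (−) and Cldn11 at chr3:31149920-31164324 (+). Of the proteins at the surfaces and the cytoplasmic channels, Mag encodes the adhesion molecule of the innermost membrane that faces the axon, Mog the immunoglobulin-like protein of the outermost membrane, Cnp a phosphodiesterase that keeps cytoplasmic channels open, Opalin a small transmembrane glycoprotein of oligodendrocytes and Ermn an actin-binding protein of late differentiation. Mag lies at chr7:30899176-30914873 (−), Mog at chr17:37010743-37023398 (−), Cnp at chr11:100574904-100591729 (+), Opalin at chr19:41061710-41077113 (−) and Ermn at chr2:58045113-58052864 (−). All are protein-coding genes in GENCODE, and reads were counted over their exons. Cnp shares 154 exon bases with Dnajc7 and Ermn shares 237 with Galnt5, each on the opposite strand, and Mobp shares 79 with Gm38642 on its own strand. The strand mode of the counting was not given in the sources used here, so reads in the shared bases cannot be assigned to a strand. Dnajc7 reached 3892 counts in a library, Gm38642 reached 19 and Galnt5 reached 11.

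The bases in front of the starts are shown for 4 of the 9 genes. These were picked for holding a match of the MYRF motif or several of the SOX motif. RefSeq gave promoter windows on GRCm38.p6 for 8 of the 9 genes, all but Mbp, and 10 windows in all, since Mag has 3 annotated starts. The 250 bases before each start were searched on both strands for CTGGCAC and CTGGTAC, which are forms of the MYRF motif, and for ACAAAG and ACAATG, which are forms of the SOX motif. In the sequences below, written 5′ to 3′ on the strand of the gene, capitals mark every match of the 4 motifs on either strand, and bases inside the annotated gene were left out.
Mobp promoter, chr9:120149492-120149706 (+): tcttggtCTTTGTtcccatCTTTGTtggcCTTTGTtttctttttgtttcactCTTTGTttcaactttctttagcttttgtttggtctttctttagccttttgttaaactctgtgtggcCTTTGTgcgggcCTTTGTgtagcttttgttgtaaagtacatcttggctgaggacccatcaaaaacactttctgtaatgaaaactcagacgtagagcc
Cnp promoter, chr11:100574689-100574903 (+): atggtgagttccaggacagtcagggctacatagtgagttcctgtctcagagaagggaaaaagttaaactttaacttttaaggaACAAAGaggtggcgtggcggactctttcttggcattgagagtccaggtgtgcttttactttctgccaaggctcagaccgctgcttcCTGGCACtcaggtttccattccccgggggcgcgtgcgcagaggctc
Mag promoter, chr7:30914923-30915172 (−): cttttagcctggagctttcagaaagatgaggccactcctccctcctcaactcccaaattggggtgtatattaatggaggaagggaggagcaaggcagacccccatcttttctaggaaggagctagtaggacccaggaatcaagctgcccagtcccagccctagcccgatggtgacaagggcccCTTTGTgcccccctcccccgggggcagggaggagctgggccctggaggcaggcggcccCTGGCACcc
Mog promoter, chr17:37023399-37023648 (−): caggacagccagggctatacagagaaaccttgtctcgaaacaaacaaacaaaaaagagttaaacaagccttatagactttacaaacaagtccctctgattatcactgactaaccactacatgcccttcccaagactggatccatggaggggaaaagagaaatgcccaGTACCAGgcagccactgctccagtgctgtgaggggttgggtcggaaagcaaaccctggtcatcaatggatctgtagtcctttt

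The Mobp window held 6 matches of ACAAAG, all on the strand opposite to the gene, between 243 and 115 bases before the start. It was the only 1 of 32851 RefSeq windows of this length with 6 or more, a threshold set from Mobp itself. Cnp held CTGGCAC at 81 to 75 bases and ACAAAG at 167 to 162 bases before its start. Mag held the same motifs at 9 to 3 bases and at 67 to 62 bases before the start shown, and Mog held CTGGTAC at 83 to 77 bases. Of the others, Opalin held 1 ACAAAG and Ermn 1 ACAATG, while Mal and Cldn11 held none of the 4. A CTGG motif was in front of 3 of the 8 genes, in 4 of their 10 windows and in 5.93% of all windows. An ACAA motif was in front of 5 of 8, in 6 of the 10 windows and in 25.2% of all windows. The Mag windows that held matches overlapped and shared them. No match overlapped another in the windows of these genes. A match is a run of letters, binding was not measured here, and a link of the motifs to the levels was not tested.

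The libraries held 23853845 to 32864391 reads counted on genes, with a median of 26727282, and the sexes of all 24 matched their labels on Xist and the Y-linked Ddx3y, Uty and Eif2s3y. All 9 genes were counted in every library and passed the low-count filter in every comparison, and the lowest count of any was 99, for Opalin. The defining markers of mature oligodendrocytes were therefore present in all pools. Of 6 genes listed for the myelin of Schwann cells, 3 passed the filter. The list summed to 80.2 to 92.5 CPM, of which Drp2 made up 69.3 to 82.5 CPM, and its defining marker Pmp2 had at most 1 count in a library. After SNI the median log2 fold change of the 3 was 0.25 in the female mPFC (0.06 without SNI replicate 1) and 0.13 in the male mPFC, with 0 called in each, and the part of such cells in the results was not tested. Levels below are CPM, the read counts of a gene scaled to a common library size, after TMM scaling over the 24 libraries.

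A single library stood apart for these genes. Replicate 1 of the female SNI mPFC held the lowest value of all 24 libraries for each of the 9 genes, and its mean log2 CPM over them was 5.23 against 6.10 to 7.14 in the other libraries. Their summed level there was 800.0 CPM against a mean of 1938 CPM in the other 2 libraries of its group, which is 0.413 of it. In the same library the other myelin proteins summed to 0.704 of the other 2, the oligodendrocyte transcription factors to 0.678, the newly formed oligodendrocyte markers to 0.721 and the layer 6 neuron markers to 0.813. The precursor markers summed to 0.969 of the other 2, the astrocyte markers to 0.972 and the excitatory neuron markers to 1.05. The summaries that use this library are given with and without it. In bulk tissue, fewer oligodendrocytes and less RNA per oligodendrocyte cannot be told apart.

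**Figure D1:**
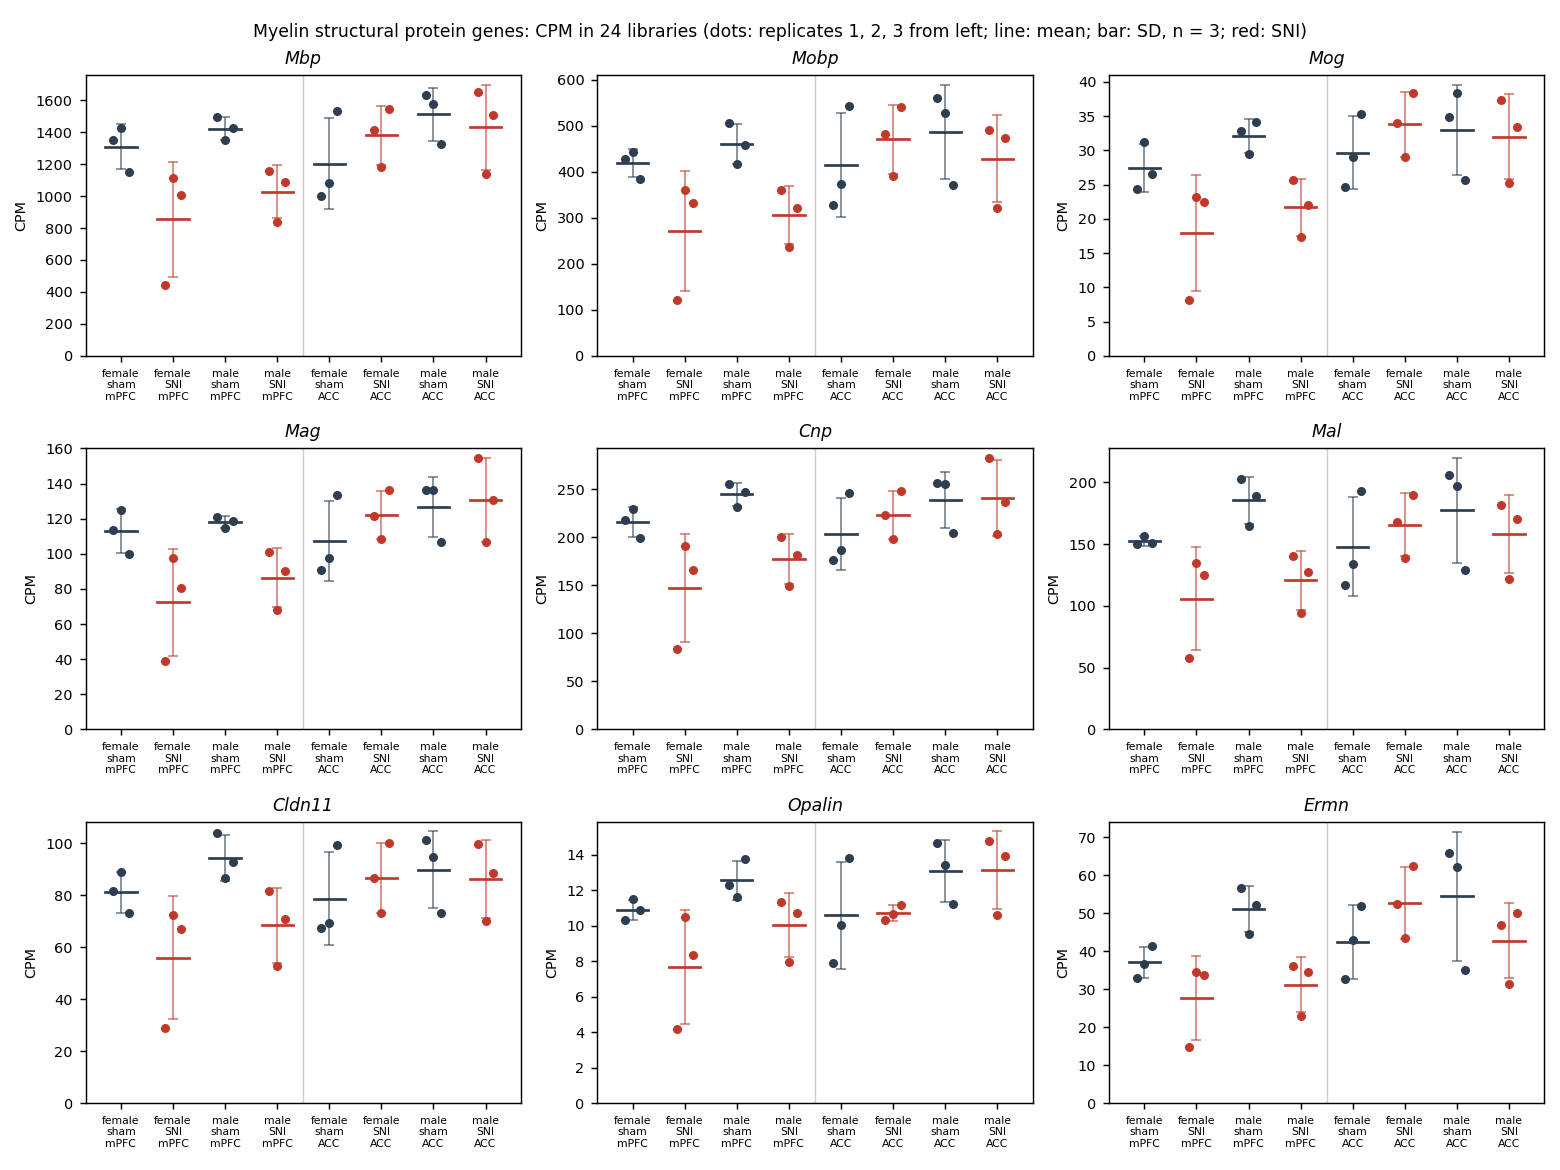
Level of each of the 9 myelin genes in CPM, with a dot for each library (replicates 1, 2 and 3 from left, SNI in red), a line at the mean of each group and a bar of 1 SD (n = 3). In the mPFC of males every SNI library lay below every sham library for all 9 genes, and replicate 1 of the female SNI mPFC was the lowest library of all 24 in each panel.

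Per kilobase of annotated exon, Mbp, at chr18:82475146-82585637 (+), was the highest of the 9, with 149.6 ± 33.6 CPM per kb (SD, n = 24). It was followed by Mobp at 59.5 ± 15.2, Cnp at 58.1 ± 11.8 and Mal at 54.6 ± 13.2 CPM per kb. These neighbours were not separated within libraries, since Mobp was above Cnp in 13 of 24 and Cnp above Mal in 18 of 24. Below them came Cldn11 at 42.8 ± 9.34, Mag at 26.9 ± 6.18, Mog at 16.7 ± 4.21, Ermn at 11.7 ± 3.49 and Opalin at 3.76 ± 0.822 CPM per kb. Each of these lay below the gene before it in 24 of 24 libraries. Without replicate 1 of the female SNI mPFC the means were 154 for Mbp, 61.3 for Mobp, 59.6 for Cnp, 56.1 for Mal and 3.86 for Opalin, in the same order. The SDs over libraries were wider than several of these gaps, while the order from Mal down to Opalin by exon length was the same in all 24. With the longest transcript as the length, Mbp rose to 264, Mobp to 124, Cnp to 72.8 and Mag to 45.003 CPM per kb. Mobp was then above Cnp, and Cnp above Mal, in 24 of 24 libraries. Mag then stood above Cldn11, at 42.8 CPM per kb, in 18 of 24. The order and the separation of neighbours thus depended on the length used.

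In the male mPFC the RNA of 7 of the 9 genes fell after SNI, and none of the 9 rose. Ermn fell the most and Opalin had the smallest difference. The comparison asks what the injury changed in the mPFC of males. Among the compact myelin genes, Mbp was at 1492, 1349 and 1424 CPM in the 3 sham libraries and at 1157, 838 and 1087 CPM in the 3 SNI libraries. The groups did not overlap, and Mbp fell by 27.5% (log2 fold change −0.46, SE 0.09, adjusted p = 0.0607). Mobp was at 506, 417 and 460 CPM in sham and at 361, 238 and 323 CPM in SNI. The highest SNI library lay below the lowest sham library (log2 fold change −0.58, SE 0.11, adjusted p = 0.0607). Mal was at 202, 164 and 189 CPM in sham and at 140.1, 94.4 and 127 CPM in SNI. It also had no overlap (log2 fold change −0.61, SE 0.11, adjusted p = 0.0558). Cldn11 was at 104, 86.5 and 92.7 CPM in sham and at 81.6, 52.9 and 70.6 CPM in SNI. Its groups were apart as well, but its log2 fold change of −0.46 (SE 0.11, adjusted p = 0.134) did not pass the threshold, an FDR of 0.1 over the 16989 genes tested in edgeR's quasi-likelihood test.

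Of the genes at the surfaces and in the cytoplasmic channels, Ermn was at 56.6, 44.6 and 52.2 CPM in the male sham mPFC and at 36.1, 22.8 and 34.6 CPM after SNI. It fell by 38.7% (log2 fold change −0.71, SE 0.13, adjusted p = 0.0558). Cnp was at 255, 231 and 247 CPM in sham and at 201, 149.8 and 182 CPM in SNI. Its fall of 0.46 on the log2 scale had the smallest p of the 9 (log2 fold change −0.46, SE 0.08, adjusted p = 0.0558). Mog, of the outermost membrane, was at 32.9, 29.4 and 34.2 CPM in sham and at 25.6, 17.4 and 22.1 CPM in SNI. It was lower in every SNI library (log2 fold change −0.56, SE 0.11, adjusted p = 0.0607). Mag, of the innermost membrane, was at 121, 115 and 119 CPM in sham and at 101, 68.0 and 90.3 CPM in SNI. Its log2 fold change of −0.44 (SE 0.10, adjusted p = 0.0985) was the closest of the called genes to the threshold. Opalin was at 12.3, 11.6 and 13.8 CPM in sham and at 11.3, 7.97 and 10.7 CPM in SNI. Its difference of −19.7% did not pass the test (log2 fold change −0.32, SE 0.12, adjusted p = 0.329).

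Of all genes tested in the male mPFC, 0.494% were called in either direction and 0.341% were called lower, beside 7 of the 9 myelin genes called lower. For 9 of the 9, every SNI library lay below every sham library, which held for 9.44% of all genes. The median log2 fold change of the 9 was −0.46, and that of all genes was 0.00. An exact permutation test of 3 libraries against 3 cannot go below p = 0.1, so the adjusted p-values rest on the model across all genes. The calls rested on single libraries. With sham replicate 1 or sham replicate 3 left out, 0 of 9 were called, with SNI replicate 3 left out only Ermn was called, and the medians in these fits were −0.43, −0.47 and −0.51. A single model over all 24 libraries also called 0 of 9. SNI replicate 2 was the lowest SNI library for all 9 genes, and without it 5 of 9 were called at a median of −0.35. That library held 72.5 CPM of Ttr, which marks the choroid plexus, against 0.302 to 0.374 CPM in the other 2, and 86.0 CPM of the 7 choroid plexus and ependyma markers against 11.4 to 13.0 CPM, and the part of such tissue in the result was not tested.

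**Figure D2:**
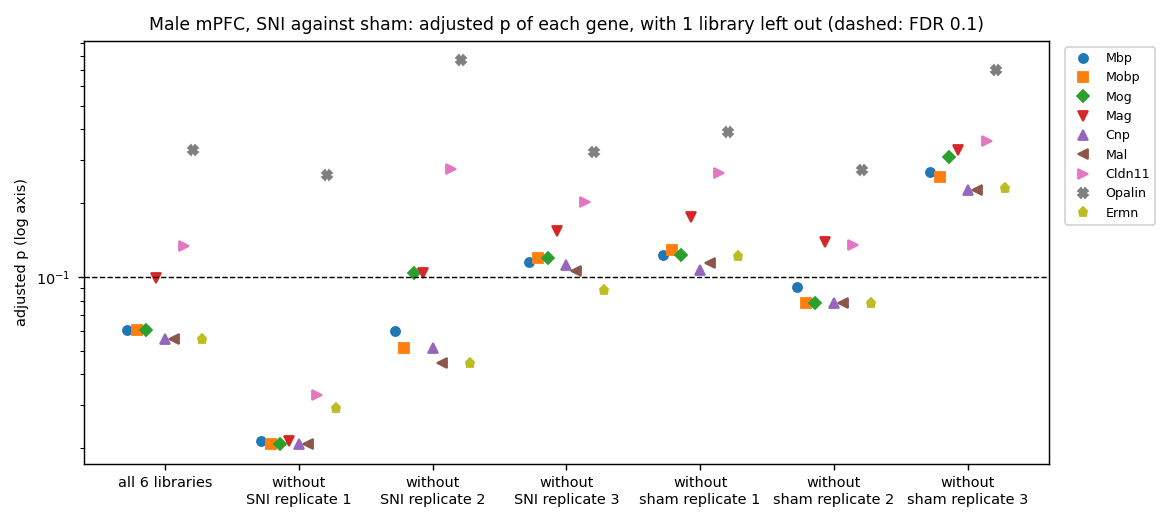
Adjusted p of each of the 9 genes for SNI against sham in the male mPFC, on a log axis, with all 6 libraries and with each library left out in turn, and a dashed line at the FDR threshold of 0.1. With all libraries 7 of 9 lie below the line, without SNI replicate 1 there are 8, and without sham replicate 1 or sham replicate 3 there are 0.

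In the female mPFC the 9 genes were lower in SNI than in sham libraries at the group means, with differences of −25.0% (Ermn) to −35.9% (Mag), and 0 of 9 passed the test. Replicate 1 of the SNI group was far below the other 2 libraries. Mbp was at 1352, 1423 and 1151 CPM in sham and at 442, 1115 and 1004 CPM in SNI. Mobp was at 428, 444 and 385 CPM in sham and at 122, 359.7 and 332 CPM in SNI. For both, all SNI libraries lay below all sham libraries, with replicates 2 and 3 not far below the lowest sham library. Mag was at 114, 125 and 100.1 CPM in sham and at 38.7, 97.6 and 80.6 CPM in SNI, and its log2 fold change of −0.64 (SE 0.23, adjusted p = 0.401) was the largest of the 9. Ermn was at 33.03, 36.7 and 41.3 CPM in sham and at 14.8, 34.5 and 33.6 CPM in SNI. Its groups overlapped, and its log2 fold change of −0.42 (SE 0.22, adjusted p = 0.454) was the smallest. With other ways of processing, the log2 fold change of Ermn was −0.63 to −0.41. Opalin, at 10.3, 11.5 and 10.9 CPM in sham and at 4.17, 10.5 and 8.33 CPM in SNI, was the other gene whose groups overlapped.

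Cnp, which had the smallest p of the 9 in males, was at 218, 230.0 and 199 CPM in the female sham mPFC and at 83.8, 191 and 166 CPM in the SNI libraries (log2 fold change −0.55, SE 0.21, adjusted p = 0.403). Mal was at 150.2, 157 and 151 CPM in sham and at 58.01, 134 and 125 CPM in SNI, and it did not pass the test (log2 fold change −0.53, SE 0.21, adjusted p = 0.403). In both, the sham libraries were close together and the spread came from the SNI group. Mog was at 24.4, 31.2 and 26.6 CPM in sham and at 8.13, 23.2 and 22.5 CPM in SNI, and Cldn11 was at 81.5, 88.8 and 73.1 CPM in sham and at 28.7, 72.3 and 66.7 CPM in SNI. Their groups were apart too, by less than the spread within either group.

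Over the 9 genes, the SEs in the female mPFC were 0.21 to 0.27 on the log2 scale, against 0.08 to 0.13 in the male mPFC. The median log2 fold change was −0.55, beside 0.00 over all genes, and the adjusted p-values were 0.401 to 0.454 in edgeR, with 8 of 9 at an unadjusted p under 0.05 and lower, as were 5.36% of all genes. DESeq2 also called 0 of 9. Of all genes 0.00592% were called. In 7 of 9 every SNI library lay below every sham library, as in 7.61% of all genes. Without SNI replicate 1, all 9 remained below 0 at a median of −0.26 and 0 were called, with adjusted p-values of 0.554 to 0.719. Without sham replicate 3, Mbp, Mag and Cnp were called, in a fit that called 2758 of 17317 genes.

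**Figure D3:**
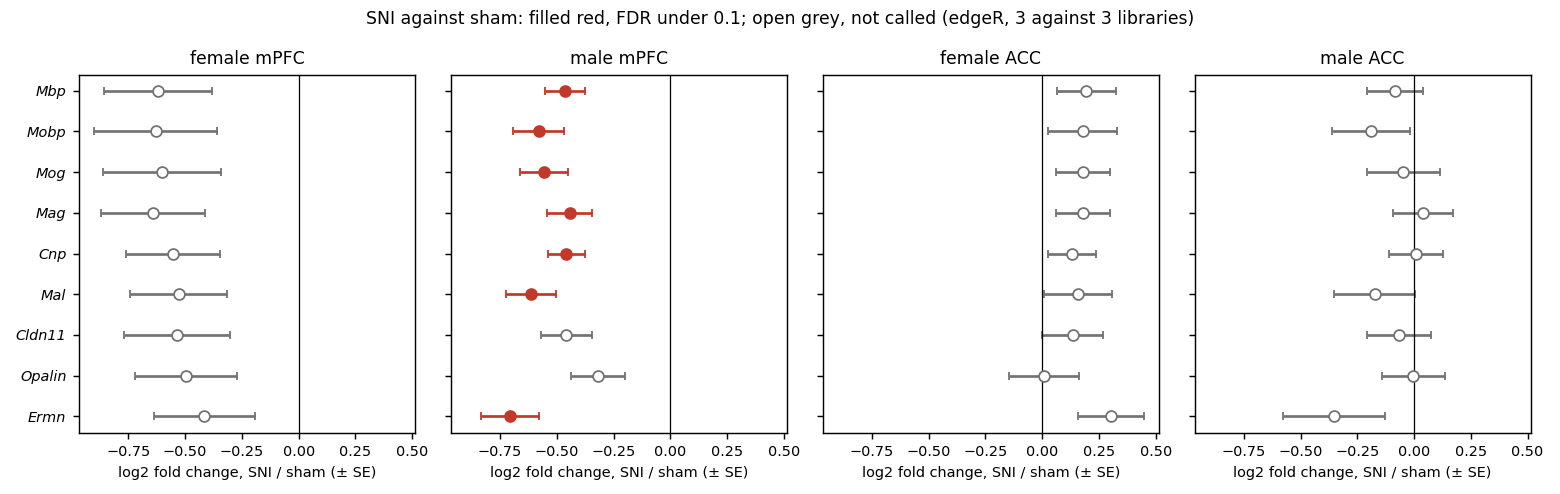
Log2 fold change of each of the 9 genes for SNI against sham by sex and region, with bars of 1 SE from edgeR's quasi-likelihood fit and genes called at an FDR of 0.1 in filled red. All 9 genes lay below 0 in the mPFC of both sexes, with wider SEs in females, while in the ACC they ran from 0.01 to 0.30 in females and from −0.35 to 0.04 in males.

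In the ACC no myelin gene was called in either sex. In the female ACC all 9 were above the sham level at the group means, by 0.543% (Opalin) to 23.3% (Ermn). Mbp was at 998, 1083 and 1529 CPM in sham and at 1414, 1181 and 1544 CPM in SNI. The groups overlapped widely, and the sham libraries alone spanned most of the range (log2 fold change 0.19, SE 0.13, adjusted p = 0.844). Ermn was at 32.6, 42.9 and 52.0 CPM in sham and at 52.5, 43.5 and 62.3 CPM in SNI (log2 fold change 0.30, SE 0.14, adjusted p = 0.761). The log2 fold changes of the others were 0.01 for Opalin, 0.13 for Cnp and Cldn11, 0.16 for Mal and 0.18 for Mobp, Mog and Mag. The median of the 9 was 0.18, the adjusted p-values were 0.761 to 0.996, 0 of 9 reached an unadjusted p of 0.05, and DESeq2 called 0. Of all genes 0.024% were called. Sham replicate 1 was the lowest of its group for all 9 genes and held 871 CPM of Ttr, and without it the median was 0.04. Sham replicate 3 was the highest for all 9, and without it the median was 0.37 with 0 called. The median was 0.07 without SNI replicate 3 and 0.11 without sham replicate 2.

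In the male ACC the differences were small, with 7 of 9 genes below 0 and a median of −0.07. Mbp was at 1630.2, 1577 and 1323 CPM in sham and at 1653, 1137 and 1505 CPM in SNI (log2 fold change −0.08, SE 0.12, adjusted p = 0.862). Ermn was at 66.0, 62.2 and 35.0 CPM in sham and at 46.9, 31.4 and 49.95 CPM in SNI (log2 fold change −0.35, SE 0.22, adjusted p = 0.768), the largest difference of the 9 there. For both genes the groups overlapped, and a single sham library, replicate 3, was the lowest of its group, as it was for all 9 genes. Without it Ermn was called, at a log2 fold change of −0.58, in a fit that called 2305 of 17013 genes, and the median was −0.19 with 9 of 9 below 0. The median was −0.18, also with 9 of 9 below 0, without SNI replicate 1, and it was 0.07, with 3 of 9 below 0, without SNI replicate 2. The sign of the small median thus changed with the libraries used. The log2 fold changes of the others were −0.19 for Mobp, −0.17 for Mal, −0.07 for Cldn11, −0.05 for Mog, −0.00 for Opalin, 0.01 for Cnp and 0.04 for Mag. The adjusted p-values with all 6 libraries were 0.768 to 0.995, 0 of 9 reached an unadjusted p of 0.05, DESeq2 called 0, and 0.00599% of all genes were called.

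With both sexes in a single model and sex as a term, the 12 mPFC libraries gave log2 fold changes of −0.60 (Mobp) to −0.40 (Opalin) for SNI against sham, with a median of −0.54. All 9 genes were at an unadjusted p under 0.05 and lower, as were 3.67% of all genes. None passed after adjustment in edgeR's quasi-likelihood test (adjusted p = 0.344 to 0.528), and 0.0% of the 17641 genes did. DESeq2 called 0 of the 9 and the likelihood ratio test 4. Without replicate 1 of the female SNI mPFC the median was −0.40. In the 12 ACC libraries the median was 0.04, and −0.01 to 0.12 with a library left out, with 0 called of the 9, 0.0% of all 17289 genes called, and 0 of 9 at an unadjusted p under 0.05.

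Whether the difference after SNI itself differed between the sexes was tested as an interaction. In the mPFC the median difference of females minus males was −0.07 on the log2 scale, 0 of 9 were called (adjusted p = 0.661 to 0.970), and 0.0% of all genes were called. Without replicate 1 of the female SNI mPFC it was 0.24, with none of the 9 below 0, and without replicate 1 of the male SNI mPFC it was 0.08, with 3 of 9 below 0. Its sign changed with either library left out. In the ACC it was 0.21, and 0.08 to 0.40 with a library left out, with 0 of 9 called (adjusted p = 0.753 to 0.999) and 0.0% of all genes called. Without male sham ACC replicate 3, Ermn was called there, at 0.89, in a fit that called 1698 of 17601 genes. In neither region was any of the 9 at an unadjusted p under 0.05. The counts of called genes in the mPFC, 0 of 9 in females and 7 of 9 in males, thus went with no called difference between the sexes, and the SEs of this difference were 0.27 to 0.36.

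The difference between the regions was tested in the same way, with the libraries of both regions taken as unpaired. Whether same-numbered libraries came from the same animals was not tested. In females the mPFC difference minus the ACC difference had a median of −0.72, from −0.83 (Mag) to −0.51 (Opalin), with 7 of 9 at an unadjusted p under 0.05 and lower, as were 5.51% of all genes, and 0 called (adjusted p = 0.428 to 0.541). Without replicate 1 of the female SNI mPFC the median was −0.43, and without female sham ACC replicate 3 it was −0.93. In males it was −0.41, and −0.58 to −0.27 with a library left out, with the single genes from −0.53 (Mog) to −0.33 (Opalin), with 4 of 9 at an unadjusted p under 0.05 and lower, as were 1.87% of all genes, and 0 called (adjusted p = 0.9999). In each sex 0.0% of all genes were called for this interaction, and DESeq2 called 0 of the 9 in all 4 interactions.

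In sham mice 0 of the 9 genes were called between the regions, again with the libraries taken as unpaired. For the mPFC against the ACC, the median log2 fold change was 0.05 in females (adjusted p = 0.363 to 0.929) and −0.05 in males (adjusted p = 0.624 to 0.942), with 0 at an unadjusted p under 0.05 and 0 called by DESeq2 in each. Of all genes, 28.5% were called between the regions in females and 14.2% in males. The SEs of the 9 were 0.08 to 0.19, and in females Ermn (−0.19, SE 0.14) and Mbp (0.13, SE 0.13) were at the ends of the range. With other ways of processing, Ermn ran from −0.20 to 0.09 in females. Without female sham ACC replicate 3, 6 of 9 were called higher in the mPFC (Mbp, Mobp, Mag, Cnp, Mal and Cldn11, 0.26 to 0.34), in a fit that called 3087 of 16995 genes, and the median was 0.27. Without replicate 1 Ermn was called lower, in a fit that called 3731 of 17101, and the median was −0.09. Without male sham ACC replicate 3, Mbp, Mobp, Mag and Ermn were called lower in the mPFC (−0.32 to −0.16), in a fit that called 4654 of 17242 genes, and the median was −0.16. These comparisons use the same sham libraries as those of SNI.

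Between the sexes, all 9 genes were lower in sham females than in sham males at the group means, and 0 were called. In the mPFC the median log2 fold change of females against males was −0.20, with 5 of 9 at an unadjusted p under 0.05 and lower, as were 5.45% of all genes. Every female library lay below every male library for Cnp, Mal, Opalin and Ermn, 4 of 9, as for 8.03% of all genes, and 0.177% of all genes were called. Ermn was at 33.03 to 41.3 CPM in females and at 44.6 to 56.6 CPM in males (log2 fold change −0.46, SE 0.10, adjusted p = 0.179), the largest of the 9. With other ways of processing, its log2 fold change was −0.47 to −0.31. DESeq2 and the likelihood ratio test each called Ermn and Mal. So did edgeR without female sham mPFC replicate 3 (Ermn at −0.55 and Mal at −0.27), in a fit that called 2667 of 17176 genes, and without male sham mPFC replicate 2 it called Ermn (−0.56), in a fit that called 28 of 17253. In the ACC the median was −0.24, with adjusted p-values of 0.737 to 0.871. It was −0.13 without female sham ACC replicate 1, −0.47 without female replicate 3 and −0.39 without male replicate 3, with 9 of 9 below 0 and 0 called each time. There 1 of 9, Mbp, was at an unadjusted p under 0.05 and lower, as were 3.33% of all genes, DESeq2 called 0, and 0.0958% of all genes were called. The sham libraries are again those that SNI was compared with.

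The 9 genes rose and fell together from pool to pool. In 6 of the 8 groups a single library held the lowest value of all 9, and in 4 of the 8 a single library held the highest. Over the 24 libraries, the 36 pairs of these genes had Pearson correlations of log2 CPM from 0.853 to 0.990, with a median of 0.963. With the mean of each group removed, they were 0.877 to 0.995, with a median of 0.959, so the likeness was there between pools of the same group too. Without replicate 1 of the female SNI mPFC, the correlations over the other 23 libraries were 0.738 to 0.975, with a median of 0.922, and with group means removed they were 0.793 to 0.989, with a median of 0.918. These values are a description, since all 9 values of a library share its tissue, its depth and its scaling. The SD of a gene over the libraries was 0.36 (Cnp) to 0.49 (Ermn) on the log2 scale, and after the mean of the other 8 was subtracted it was 0.07 (Mbp) to 0.19 (Ermn). Over the 23 libraries without that replicate the SDs were 0.23 (Cnp) to 0.38 (Ermn), and 0.07 (Mbp) to 0.19 (Ermn) after the subtraction. Ermn and Opalin, at 0.15, kept the most spread of their own. The GC content of the longest transcript was 38.0% for Ermn, the lowest of the 9, and 45.8% for Opalin. Any part of GC content in this spread was not tested. Relative to the mean of the other 8, the log2 level of Ermn was −1.72 in the female sham mPFC and −1.33 in the female SNI ACC, the ends of its range over the 8 groups.

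**Figure D4:**
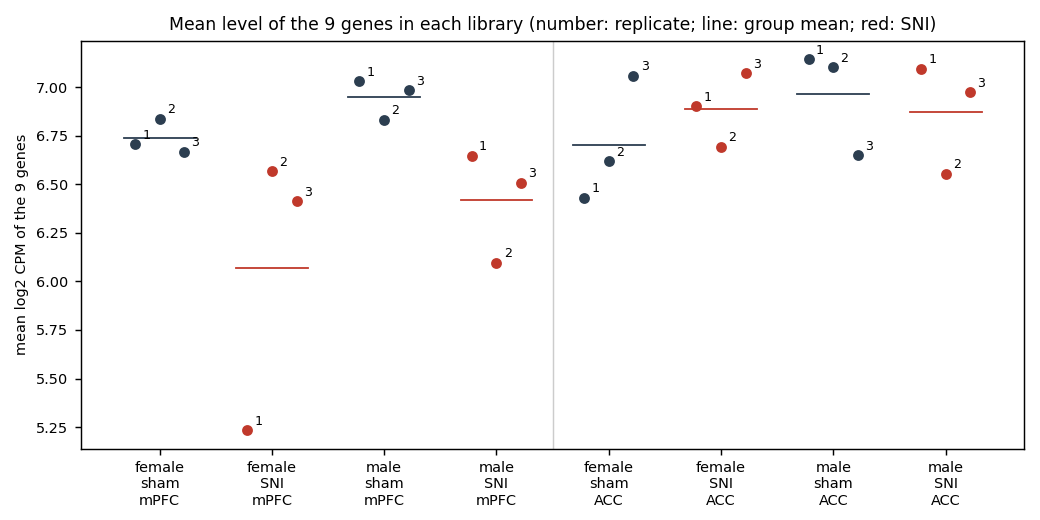
Mean log2 CPM of the 9 myelin genes in each of the 24 libraries, by sex, region and treatment, with the replicate number beside each dot and a line at each group mean. Replicate 1 of the female SNI mPFC is at 5.23, and the other 23 libraries lie between 6.10 and 7.14.

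Other genes followed the same pattern. Among the 18069 other genes, those whose log2 CPM correlated most with the mean of the 9 over the 24 libraries included Plekhb1 (r = 0.989), Trf (r = 0.982), Plekhh1 (r = 0.982), Adamts4 (r = 0.982), Gpr37 (r = 0.981), Tmem88b (r = 0.978), Litaf (r = 0.975), Myrf (r = 0.974) and Bcas1 (r = 0.968). Trf encodes the iron carrier transferrin, which oligodendrocytes make, and Myrf the myelin regulatory factor. With group means removed, 9 of the first 10 genes were again among the first 10, led by Trf (r = 0.989), and Prr18 took the place of Myrf. Over the 23 libraries 9 of the first 10 genes were the same, led by Plekhb1 (r = 0.977), and with group means removed 8 of the first 10 were.

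Other genes of myelin and of the oligodendrocyte lineage were read from lists whose make-up was chosen with earlier results known. In the male mPFC after SNI, 7 of 23 other proteins of the sheath and the paranodes were called lower and 23 of 23 were below 0, with a median log2 fold change of −0.33. Ndrg1 fell by 0.50 on the log2 scale (log2 fold change −0.50, SE 0.09, adjusted p = 0.0558) and Efnb3, a ligand that blocks axon growth, by 0.29 (log2 fold change −0.29, SE 0.05, adjusted p = 0.0558). Of 7 enzymes of myelin lipids 1 was called lower, Fa2h, which makes the hydroxylated fatty acids of myelin (log2 fold change −0.49, SE 0.11, adjusted p = 0.0985), and the median was −0.29. Of 8 transcription factors of the lineage 1 was called lower, Myrf, at 65.7, 60.4 and 66.2 CPM in sham and at 52.2, 35.4 and 47.2 CPM in SNI (log2 fold change −0.50, SE 0.10, adjusted p = 0.0696), and the median was −0.31.

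Earlier stages of the lineage differed less. In the male mPFC, 1 of 7 markers of newly formed oligodendrocytes was called lower, Enpp6, at 7.04 to 7.37 CPM in sham and 3.86 to 5.80 CPM in SNI (log2 fold change −0.61, SE 0.14, adjusted p = 0.0985), and the median of the list was −0.17. None of 10 precursor markers was called, 1 was at an unadjusted p under 0.05, and the median was −0.02. Pdgfra, the growth factor receptor that defines the precursors, differed by −0.14 on the log2 scale (SE 0.06, adjusted p = 0.384), Sulf2 by −0.04 (SE 0.05, adjusted p = 0.829) and Xylt1 by −0.06 (SE 0.05, adjusted p = 0.640). In the female mPFC 0 genes of these 5 lists were called. The medians were −0.36 for the other sheath and paranode proteins, −0.21 for the lipid enzymes, −0.34 for the transcription factors, −0.09 for the newly formed cells and −0.06 for the precursors. Without SNI replicate 1 they were −0.16, −0.04, −0.22, −0.05 and −0.02 in the same order, again with 0 called. With all libraries Myrf was at 59.2, 61.9 and 44.98 CPM in sham and at 19.6, 50.3 and 42.4 CPM in SNI (log2 fold change −0.56, SE 0.24, adjusted p = 0.413), with the same low library as the 9 genes, and without it the log2 fold change was −0.26 (SE 0.13, adjusted p = 0.646). In the ACC the medians of the sheath and paranode list were 0.12 in females and −0.03 in males, with 0 called in each.

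**Figure D5:**
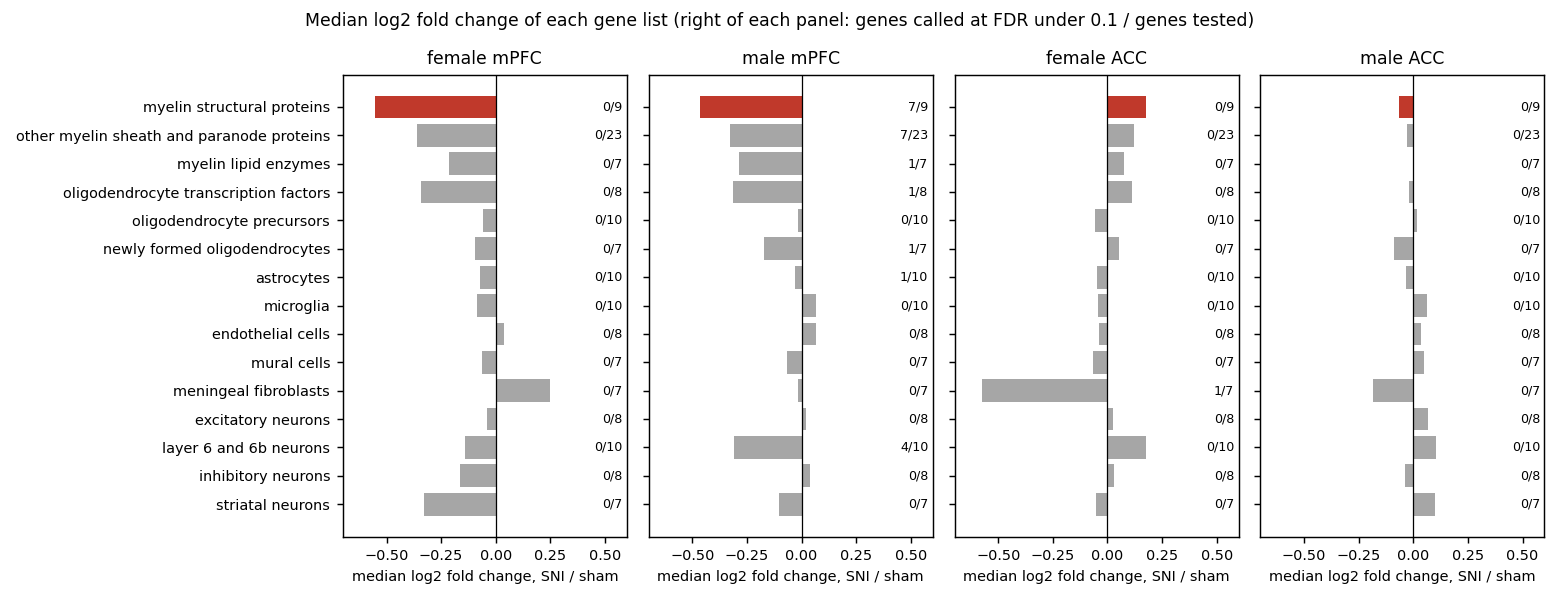
Median log2 fold change of each gene list with at least 7 genes tested everywhere, for SNI against sham, by sex and by region, with the number of genes called of those tested at the right of each panel. In the mPFC of both sexes the 9 myelin genes had the lowest median, at −0.55 in females and −0.46 in males, and the precursor list was near 0, at −0.06 and −0.02. Without replicate 1 of the female SNI mPFC, which is included here, the female median of the 9 was −0.26 and the striatal list, at −0.31, was lower.

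Markers of other cell types moved with the result in places. In the male mPFC 4 of 10 markers of layer 6 and 6b neurons, which lie next to the white matter, were called lower, among them Syt6 (log2 fold change −0.43, SE 0.08, adjusted p = 0.0558), Hs3st4 (log2 fold change −0.35, SE 0.06, adjusted p = 0.0558) and Tle4 (log2 fold change −0.33, SE 0.06, adjusted p = 0.0607), and all 10 were below 0. The list summed to 279 to 308 CPM in the male sham mPFC and 219.8 to 249.7 CPM in the male SNI mPFC, and the part of these cells in the myelin result was not tested. In the female mPFC the list had a median of −0.14 with 0 called, and it summed to 267 to 330.3 CPM in sham and 229.7 to 289.7 CPM in SNI. Without SNI replicate 1 its median was −0.03. Of 10 astrocyte markers 1 was called lower in the male mPFC, Gfap (log2 fold change −0.32, SE 0.06, adjusted p = 0.0729), and the median was −0.03. The microglia, endothelial, mural, excitatory and inhibitory neuron lists had 0 called genes there and medians of −0.07 to 0.06. The striatal list, which marks tissue below the mPFC, had a median of −0.33 in the female mPFC (−0.31 without SNI replicate 1) and −0.10 in the male mPFC, with 0 called in each. In the ACC the layer 6 and 6b list had a median of 0.18 in females and 0.10 in males, with 0 called in each. The 9 myelin genes had medians of 0.18 and −0.07 there. In the female ACC the meningeal fibroblast list had a median of −0.57, with 1 of 7 called lower. That list summed to 219, 127 and 144 CPM in female sham ACC replicates 1, 2 and 3, so replicate 1 was the highest.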

How the data were processed

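RNA was sequenced in 24 libraries, 8 groups of 3, each from a pool of 4 to 5 animals. The deposited values are counts of reads per gene, made by the authors by trimming (Trimmomatic 0.36), filtering of Rfam reads (Bowtie2), mapping to GRCm38 (HISAT2 2.1.0) and counting (HTSeq 0.9.1), per their methods and processing notes. They were not normalized. Here, edgeR 4.0.16 in R 4.3.3 (with limma 3.58.1) fitted each comparison on its own libraries, with filterByExpr (count 10, total 15), TMM and the quasi-likelihood F-test in its legacy setting. Genes were called at an FDR of 0.1 (Benjamini-Hochberg) over all genes tested. Both-sex and interaction models used 12 libraries. Log2 CPM had a prior count of 2, over the 18078 genes that passed the filter in the 24 libraries. SEs were derived from the fold change and F. Steps were tested on simulated data.

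All 9 genes were tested in every comparison, and where none was called for an interaction, between regions or between sexes, those at the ends of the range or closest to the threshold are named. From each list the 3 called genes with the smallest p are named, or the 3 with the highest CPM where none was called, and the 10 genes most correlated with the 9. The genes, lists and tests were chosen with earlier results of these data known, and Myrf, among the 3 most expressed of its list, is given in females too. Some genes that these rules select are not reported here by name. Gene names, positions and lengths come from GENCODE M21, which holds 33336 of the 33364 identifiers, and promoters from RefSeq.

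Alternatives were RLE factors, dropping the filter, a filter of 10 counts per library, DESeq2 1.42.0, the current quasi-likelihood method, the likelihood ratio test, a model over 24 libraries, the replicate number as a block, a GC correction, and each library left out in turn. Leaving replicate 1 of the female SNI mPFC out of the levels, the correlations and the other lists was chosen after seeing the data. P-values rest on the spread between pools as modelled across all genes. Libraries of a group differed by a chi-square per gene of 2.59 to 18.5, where counting error alone gives 1, and none was a duplicate.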

Additional observations from a re-analysis of the deposited data

How the results depend on the processing

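No member changed direction in the mPFC: the log2 fold changes of the 9 genes for SNI against sham in females, in males and in both sexes together stayed below 0 in all 216 values from fits that left out a library and in all 243 values from other alternatives, counting each gene in each fit. The number of called genes was less stable. Leaving out a library gave 0 to 3 of 9 in the female mPFC, 0 to 8 in the male mPFC, 0 to 1 in the male ACC, 0 to 6 for the regions in female sham, 0 to 4 in male sham, 0 to 2 for the sexes in the sham mPFC and 0 to 1 for the sex by SNI interaction in the ACC; the single libraries are named with the results. The model over 24 libraries called 0 in the male mPFC, where the other alternatives called 6 to 9. Without a low-count filter 9 were called in the female mPFC, 6 in the female ACC, 9 in both sexes in the mPFC, 1 for the regions in female sham, 2 for the sexes in the sham mPFC, 1 for the sex by SNI interaction in the ACC, and 9 and 7 for the region by SNI interaction in females and males. The likelihood ratio test called 4 in both sexes in the mPFC. For the sexes in the sham mPFC it called 2, as did DESeq2 and the GC correction. The cause was not tested. Genes called in the female mPFC numbered 1 with the filter and 641 without it, and in the male mPFC 84, or 0 in the model over 24 libraries. For the other alternatives in this paragraph the numbers of all genes called are not given. Their counts of the 9 are therefore not read as particular to the myelin genes.

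The deviations of same-numbered libraries had correlations of r = −0.103 to 0.153. With 3 libraries in a group, these values cannot show whether a number pairs samples, such as both regions of the same animals. The main fits used no pairing. With the replicate block 9 were called in the male mPFC, with 745 genes in all, and 1 for the sexes in the sham mPFC. Each of the 9 genes had at least 99 counts in every library, and for those with high counts the depth limits the precision less than the spread between 3 pools. Opalin had the lowest counts. In the female sham mPFC it had 263 to 310 counts and an SD of 5.30% of its mean, and counting error is not small beside such a spread.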
